A study of Mus musculus with 120 samples.

Results

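The genes described here are the transcription factor *Atf4* and 9 genes of amino acid synthesis, amino acid uptake and stress feedback that are known ATF4 targets: *Asns*, *Phgdh*, *Psat1*, *Shmt2*, *Mthfd2*, *Aldh18a1*, *Slc7a5*, *Trib3* and *Bcat1*. They were taken by symbol from the count tables of both sequencing batches, as 10 of the 55487 genes listed in both, and all 10 passed the filter on low counts that left 23871 genes. The members had been chosen by their levels at 6 weeks of age against later times. The values of that contrast are therefore given as a description, the calls in it are only counted beside the share over all genes, and support is drawn from none of them.

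The study followed female mice with an immunological niche (IN), a porous polycaprolactone scaffold under the skin of the back that host cells enter and that can be biopsied repeatedly. NOD mice, the nonobese diabetic strain, were divided into progressors, which became hyperglycemic, and nonprogressors, which kept normal blood glucose. NOR mice, a diabetes-resistant strain matched to NOD at the *H2g7* locus, were the nondiabetic control. Bulk RNA sequencing gave 120 samples, 23 from NOR mice, 39 from nonprogressors and 58 from progressors, each an untreated mouse with IN implants. In batch 1, NOR mice (4 or 5 samples an age) and nonprogressors (4 an age) were sampled at the ages of 6, 10, 14, 18 and 22 weeks. Progressors of that batch were sampled at 6 weeks of age, at 5, 3 and 1 weeks before onset (−5, −3 and −1) and at onset, with 5 samples at each time. In batch 2, progressors were sampled at the same times (5 samples each) and at −7 weeks (8 samples), and nonprogressors at 6 weeks (7 samples) and 14 weeks (6 samples). A further 6 nonprogressor samples of batch 1 are labelled by days after implantation. Every mouse received its scaffolds at 4 weeks of age, and each scaffold removed from 6 weeks onward was replaced by a new one at the same place. A scaffold taken at 6 weeks therefore belongs to the first implantation, whereas later ones can be replacements, so the age of the mouse and the history of the implant cannot be told apart. The samples of a mouse are repeated biopsies and not separate animals.

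Counts per sample ran from 4722396 to 56185434 (median 33487260.5). Batch 1 held 74 samples and batch 2 held 46, sequenced on different instruments, and the study used 2 cohorts of mice. A ribosomal RNA gene took 85.7% of the library of NOR mouse 5 at 18 weeks, and 1233373 counts were left on all other genes. *Asns*, *Slc7a5* and *Trib3* had no count in that library, where a count of 0 allows up to 3 counts. No other library was at 0 for any of the 10 genes. Macrophage markers summed to between 3366 and 9494 CPM (counts scaled to a common library size) and fibroblast markers to between 5899 and 85193 CPM over the samples, while T cell markers reached at most 62.4 CPM. In bulk RNA, fewer cells of a type and less RNA per cell cannot be told apart.

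ATF4 is the effector of the integrated stress response. Kinases that sense amino acid shortage, unfolded protein, heme shortage or double-stranded RNA phosphorylate the initiation factor eIF2α, which lowers most protein synthesis but raises translation of the *Atf4* message. The protein then drives genes that make, import and load amino acids, so that its activity is not read from its own RNA level alone.

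*Atf4* lies on chromosome 15 (80255184 to 80257541, GRCm38). Of the enzymes that make serine from a glycolytic intermediate, *Phgdh* (chromosome 3, 98313170 to 98339990) performs the first step and *Psat1* (chromosome 19, 15904678 to 15947337) the transamination that follows. *Shmt2* (chromosome 10, 127517123 to 127522444) converts serine to glycine in mitochondria, and *Mthfd2* (chromosome 6, 83305691 to 83325908) oxidizes the one-carbon unit so released. *Asns* (chromosome 6, 7675169 to 7693254) makes asparagine, and *Aldh18a1* (chromosome 19, 40550257 to 40588463) encodes the enzyme that opens proline synthesis from glutamate. *Bcat1* (chromosome 6, 144993835 to 145076184) is the cytosolic transaminase of branched-chain amino acids, and *Slc7a5* (chromosome 8, 121881150 to 121907694) is the light chain of the LAT1 importer of large neutral amino acids. *Trib3* (chromosome 2, 152337422 to 152344032) encodes a pseudokinase that is induced by ATF4 and restrains it.

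ATF4 binds composite C/EBP-ATF elements, whose core is TGATGNAA on either strand. RefSeq promoters (GRCm38.p6, 250 bases before to 50 bases after each start) were held for 9 of the 10 genes, in 11 windows, and those of 2 genes contained this core. Over all 32851 promoters of the table the share was 3.969%. The match is a description of letters, and an absent match says nothing of binding. The 30 bases around each match are shown on the strand of the gene, with the core or its reverse complement in capitals, because these are the genes with a match. For *Asns* the stretch is chr6:7693214-7693243 on the minus strand, with the core starting at −23 from the RefSeq start. For *Trib3* it is chr2:152344028-152344057 on the minus strand, with the reverse complement starting at +15.
Asns: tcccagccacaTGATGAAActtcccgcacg
Trib3: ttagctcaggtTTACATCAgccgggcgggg

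Per length of exon sequence, *Atf4* was by far the most abundant of the 10 transcripts, with a median of 48.2 CPM per kb over the 120 samples. *Shmt2* (7.64 CPM per kb) and *Aldh18a1* (7.22) came next. Medians of *Slc7a5*, *Trib3*, *Mthfd2*, *Asns*, *Psat1* and *Phgdh* lay between 2.43 and 4.02 CPM per kb, and *Bcat1*, whose transcripts are long, was lowest at 1.33. All values that follow are CPM per sample after TMM scaling of the library sizes, without correction for length, and they compare samples and not genes. The median number of counts behind a value ran from 199 for *Phgdh* to 3817 for *Atf4*.

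**Figure D1:**
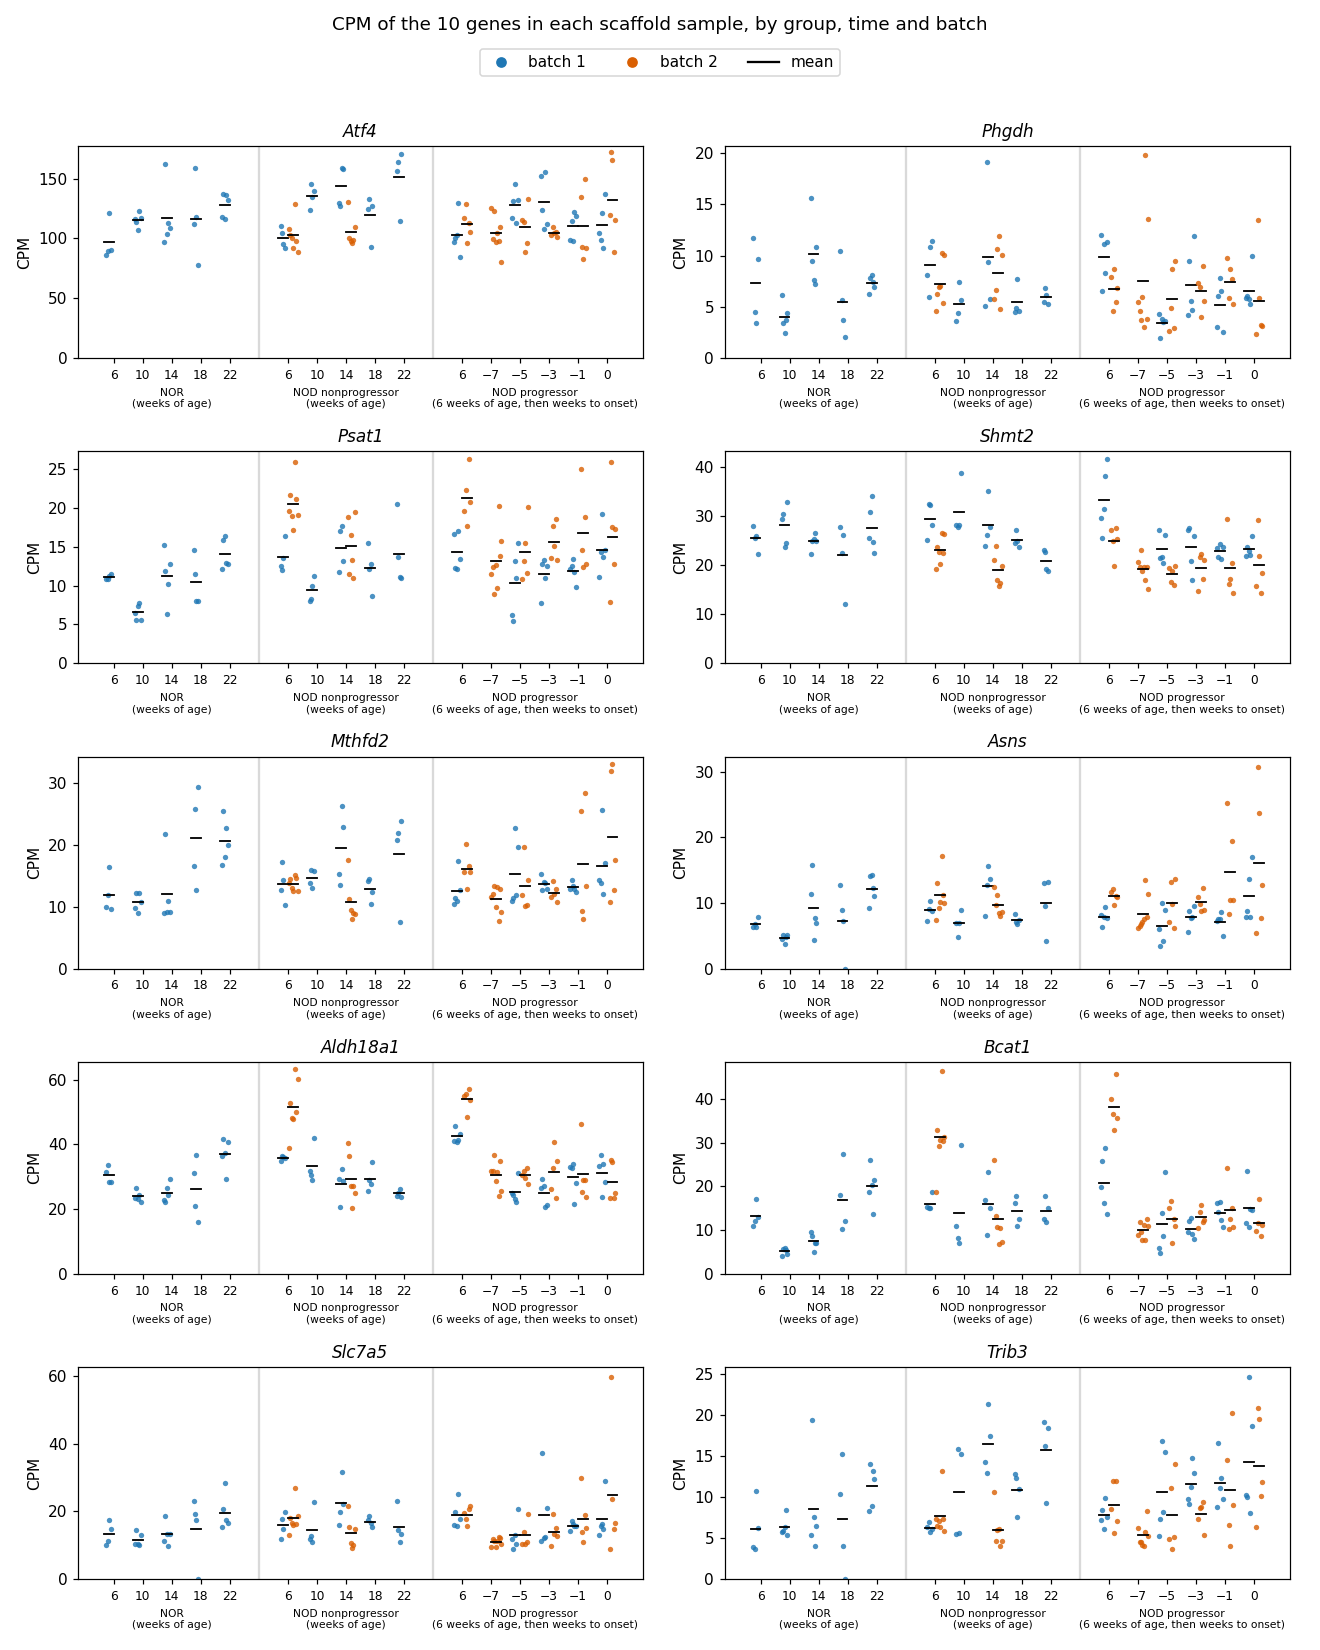
CPM (y axis, from 0) of each of the 10 genes in every sample with a labelled age or time to onset, by group and time (x axis), with batch 1 in blue, batch 2 in orange and a black line at the mean of each group. *Bcat1* and *Aldh18a1* of NOD mice in batch 2 stand highest at 6 weeks, whereas *Trib3* of batch 2 progressors is lowest at −7 weeks; the 3 NOR points at 0 belong to 1 library.

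Scaffolds taken at 6 weeks of age were first described against all later scaffolds of the same group and batch. *Bcat1* and *Aldh18a1* are genes of branched-chain amino acid and proline metabolism. Both had higher levels at 6 weeks than later in progressors and in nonprogressors of batch 2, with the widest differences in batch 2. *Aldh18a1* was also higher in nonprogressors of batch 1, where the difference of *Bcat1* was below its standard error. In NOR mice both genes had positive differences close to their standard errors. The upstream factor *Atf4* did not share this pattern, and *Trib3* had lower means at 6 weeks in all 3 groups of batch 1.

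*Bcat1* showed the widest difference. In batch 2 progressors, the 6-week values were 39.9, 36.6, 32.9, 45.6 and 35.6 CPM for mice 6 to 10, and the 28 later samples ran from 7.03 to 24.3 CPM with a median of 11.4. All 5 young samples thus lay above all later ones, which 1.9% of the genes tested also did. The difference of 6 weeks from later, averaged over the later times on the log2 scale, was 1.64 (standard error 0.20). In batch 2 nonprogressors, *Bcat1* ranged from 18.6 to 46.4 CPM at 6 weeks (median 30.7, n = 7) and from 6.90 to 26.1 CPM at 14 weeks (median 10.6, n = 6). Only the 14-week sample of mouse 5 reached into the 6-week range, and the log2 difference was 1.33 (standard error 0.26).

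Batch 1 gave smaller differences of *Bcat1*. Its progressors held 20.0, 25.7, 16.1, 28.8 and 13.7 CPM at 6 weeks against 4.72 to 23.6 CPM later (log2 difference 0.74, standard error 0.22), and 8 of the 20 later samples lay above the lowest young one. Nonprogressors held 15.3, 15.1, 15.1 and 18.7 CPM at 6 weeks, within the range of 6.99 to 29.4 CPM seen later (0.13, standard error 0.25). In NOR mice the 6-week values of 11.1, 12.1, 17.03 and 13.1 CPM were also inside the later range of 4.05 to 27.5 CPM (0.30, standard error 0.25). With 14 weeks as the only later age, as in batch 2 nonprogressors, the difference was 0.83 in NOR mice (standard error 0.31) and 0.0029 in batch 1 nonprogressors (standard error 0.32).

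*Aldh18a1* was more uniform among mice. The 6-week values of batch 1 progressors were 41.2, 45.8, 40.7, 41.5 and 43.3 CPM, all above the 20 later samples (20.7 to 36.7 CPM), which held for 0.896% of the genes tested. In batch 2 progressors they were 55.1, 55.7, 48.6, 57.2 and 53.7 CPM against 23.4 to 46.5 CPM in 28 later samples. The log2 differences were 0.62 (standard error 0.11) and 0.83 (standard error 0.11). The later sample nearest to the young ones in batch 2 was that of mouse 6 at −1 week.

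Nonprogressors of batch 2 held 38.9 to 63.2 CPM of *Aldh18a1* at 6 weeks (median 50.1) and 20.2 to 40.6 CPM at 14 weeks (median 27.2), a log2 difference of 0.81 (standard error 0.13). Those of batch 1 were close together at 6 weeks, with 35.0, 36.3, 36.0 and 35.7 CPM, and 15 of their 16 later samples were lower. The exception was mouse 4 at 10 weeks with 42.1 CPM. NOR mice held 31.6, 33.5, 28.5 and 28.5 CPM at 6 weeks against 16.2 to 41.8 CPM later (0.13, standard error 0.13). Within single mice, both *Aldh18a1* and *Bcat1* were higher at 6 weeks than in the mean of that mouse's later samples in 10 of 10 progressors, 9 of 10 nonprogressors and 4 of 4 NOR mice.

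Among the serine and one-carbon enzymes, *Shmt2* was higher at 6 weeks in progressors of both batches. Batch 1 progressors held 29.7, 25.5, 31.5, 38.3 and 41.8 CPM at 6 weeks against a median of 23.2 CPM later, and batch 2 progressors held 19.8 to 27.7 CPM against a median of 19.1 CPM. The log2 differences were 0.51 (standard error 0.11) and 0.38 (standard error 0.11), and the ranges overlapped in both. *Psat1* of batch 2 progressors was 19.6, 22.2, 17.6, 26.2 and 20.7 CPM at 6 weeks against 7.87 to 25.9 CPM later (0.49, standard error 0.16), with 7 of 28 later samples above the lowest young one. Within single nonprogressors, *Shmt2* was higher at 6 weeks than later in 4 of 4 mice of batch 1 and 4 of 6 of batch 2. *Psat1* was so in 2 of 4 and 6 of 6.

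*Phgdh* varied with the batch. In batch 1 progressors it averaged 9.86 ± 2.31 CPM at 6 weeks (SD, n = 5) and 5.59 ± 2.57 CPM later (n = 20), a log2 difference of 0.87 (standard error 0.28), whereas in batch 2 progressors the averages were 6.70 ± 1.68 and 6.67 ± 3.96 CPM. Within single nonprogressors, *Phgdh* was higher at 6 weeks in 3 of 4 mice of batch 1 and 1 of 6 of batch 2. *Mthfd2* had differences between −0.36 and 0.36 on the log2 scale over the 5 sets of samples. *Asns*, which makes asparagine, had differences between −0.25 and 0.20, and *Slc7a5*, the importer, between −0.17 and 0.40.

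*Atf4* itself had lower means at 6 weeks in all 3 groups of batch 1. Its 6-week values in nonprogressors of that batch were 110, 105, 94.9 and 92.1 CPM, and all 16 later samples were above the lowest of these (92.9 to 170 CPM, log2 difference −0.45, standard error 0.13). In batch 2 the levels of both ages were alike in range, with 88.7 to 129 CPM at 6 weeks and 96.1 to 131 CPM at 14 weeks in nonprogressors. *Trib3*, the feedback gene, was 6.31, 6.96, 5.75 and 6.16 CPM at 6 weeks in batch 1 nonprogressors and averaged 13.5 ± 4.74 CPM later (n = 16), a log2 difference of −1.07 (standard error 0.34). In batch 2 nonprogressors *Trib3* ran from 5.86 to 13.2 CPM at 6 weeks and from 4.02 to 10.6 CPM at 14 weeks.

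Counted over the 10 genes, the number past an adjusted p of 0.05 in edgeR's quasi-likelihood test was 4 higher at 6 weeks in progressors of batch 1 (13.7% of all genes tested were higher) and 4 in progressors of batch 2 (14.6%). It was 2 higher in nonprogressors of batch 2 (11%) and 2 lower, *Atf4* and *Trib3*, in nonprogressors of batch 1 (6.72% lower). In NOR mice it was 0 (0.126% in either direction), with 1 at an unadjusted p under 0.05 (1961 of 23871 genes) and 0 by DESeq2. Since these contrasts chose the genes, nothing is read from the counts. The median log2 difference of the 10 genes was 0.24 and 0.23 in progressors of batch 1 and 2, 0.06 and 0.36 in nonprogressors, and −0.10 in NOR mice, beside medians over all genes between −0.04 and 0.01.

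**Figure D2:**
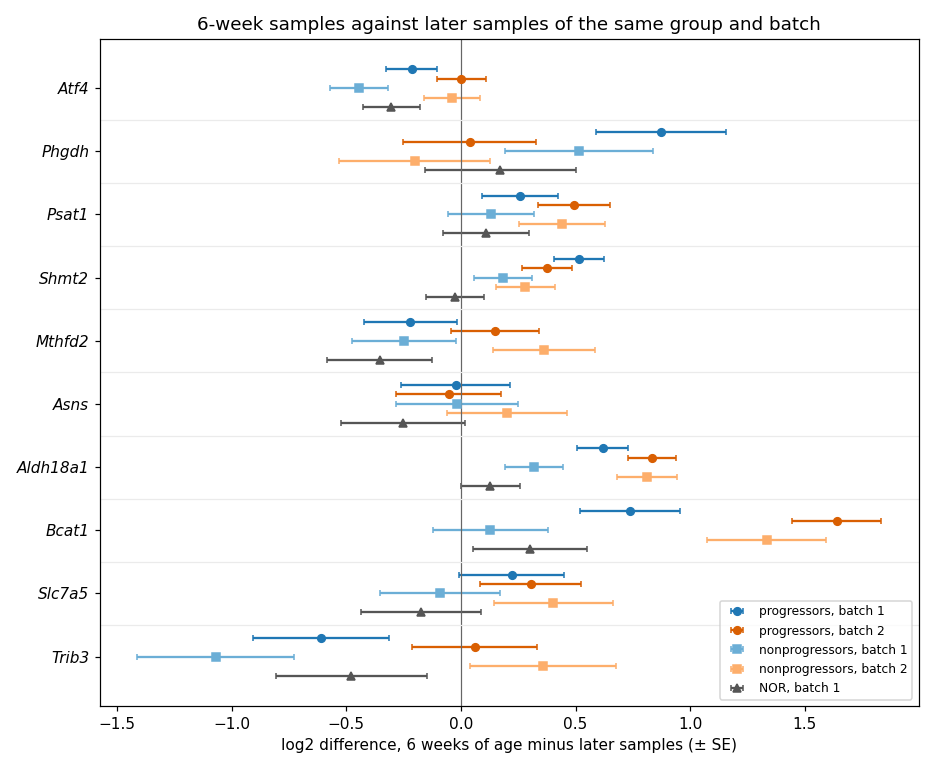
Log2 difference of 6-week samples from later samples of the same group and batch (x axis, with the standard error) for the 10 genes (y axis). *Aldh18a1* and *Bcat1* lie right of 0 in all 5 sets of samples, at up to 1.64 for *Bcat1* in batch 2 progressors, while *Atf4* and *Trib3* lie left of 0 in the 3 sets of batch 1.

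Other genes of the pathway were counted in the same contrasts. Over all genes tested, the share higher at 6 weeks was 13.7% and 14.6% in progressors of batch 1 and 2 and 7.39% and 11% in nonprogressors, and the share lower was 11.7% and 13.8%, and 6.72% and 13.1%. In NOR mice the shares were 0.101% higher and 0.0251% lower. The counts that follow are to be read beside these shares. Of 12 further serine, glycine and one-carbon enzymes, those higher at 6 weeks were 6 in progressors of batch 1, 7 in progressors of batch 2, 2 and 6 in nonprogressors of batch 1 and 2, and 0 in NOR mice. Those lower were 1, 0, 0, 3 and 0. Of 20 cytosolic aminoacyl-tRNA synthetases, which load amino acids onto tRNA, 4 and 5 were higher in progressors of batch 1 and 2, and 0 and 6 in nonprogressors. Those lower were 2 and 0 in progressors and 1 and 0 in nonprogressors. Of 14 genes of the integrated stress response, 5 were lower at 6 weeks in nonprogressors of batch 1, where *Atf4* and *Trib3* were lower too, and in the other NOD sets between 1 and 3 were higher and between 1 and 3 lower. Of 14 genes of the XBP1 and ATF6 arm, which answers unfolded protein in the endoplasmic reticulum, 5 and 6 were higher in progressors and nonprogressors of batch 2. For this list the counts lower, and those of batch 1 and NOR mice, are not given here. Among the eIF2α kinases, *Eif2ak2* was higher at 6 weeks in nonprogressors of batch 1 and 2 (log2 differences 0.72 and 0.98) and progressors of batch 2 (0.82). It did not pass in progressors of batch 1 (0.16) or NOR mice (0.22), and *Eif2ak1*, *Eif2ak3* and *Eif2ak4* passed in no set. Of the partners listed with these kinases, *Eif2s1* was higher at 6 weeks in nonprogressors and progressors of batch 2 (0.32 and 0.21). *Ppp1r15b* was lower in nonprogressors and progressors of batch 1 (−0.32 and −0.31). Neither passed in the other sets. Of 9 further enzymes of proline, aspartate, alanine and glutamine, 3 and 1 were higher in progressors of batch 1 and 2 and 0 and 1 in nonprogressors, and those lower were 0 and 2, and 1 and 3. Of 5 genes of branched-chain amino acid breakdown, 2 were lower in nonprogressors of batch 2 and none passed in the other sets. Lists of amino acid transporters and of mitochondrial aminoacyl-tRNA synthetases were chosen too, and their counts are not given here.

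Markers of fibroblasts and of dividing cells moved with the age difference. All 6 fibroblast markers (*Col1a1*, *Col1a2*, *Col3a1*, *Pdgfra*, *Dcn* and *Lum*) were higher at 6 weeks in progressors of both batches and in nonprogressors of batch 2. In nonprogressors of batch 1, 3 of 6 were, and in NOR mice 0 of 6, where 0.126% of all genes passed in either direction. Their summed level in batch 2 progressors was 39096 to 68117 CPM at 6 weeks and 5899 to 35479 CPM later, and in batch 1 progressors 44519 to 83240 and 9716 to 43239 CPM. In nonprogressors it was 39159 to 68490 against 12747 to 29012 CPM in batch 2 and 33394 to 50852 against 14164 to 57869 CPM in batch 1. NOR mice held 36564 to 45054 CPM at 6 weeks and 21182 to 85193 CPM later.

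Of 8 proliferation markers, 6 and 7 were higher at 6 weeks in progressors and 5 and 7 in nonprogressors. In NOR mice 0 of 8 passed, where 0.126% of all genes did in either direction. There these markers differed by 0.03 (*Pcna*) to 0.67 (*Top2a*) on the log2 scale. In batch 1 nonprogressors they differed by −0.19 (*Pcna*) to 0.80 (*Ccnb1*). Their sums in batch 2 progressors were 217 to 304 CPM at 6 weeks and 103 to 241 CPM later. No marker of either list was at 0 throughout a group. Markers of neighbouring tissues differed too. Adipocyte markers were lower at 6 weeks in 4 of 4 genes in both groups of batch 2, where their sums were 1.03 to 5.71 CPM at 6 weeks and 5.91 to 512 CPM later in progressors and 0.524 to 6.83 against 0.308 to 374 CPM in nonprogressors. Skeletal muscle markers were lower in 4 of 4 in nonprogressors of batch 2 (1.71 to 361 against 7.51 to 4989 CPM) and in 0 of 4 in the other sets. In batch 1 the 4 adipocyte markers had differences in the opposite direction, from 1.44 to 2.63 on the log2 scale in progressors, of which *Lep* passed (adjusted p = 0.00568, edgeR). Mammary epithelium markers were lower in 3 of 3 tested in nonprogressors of batch 2 (sums of 0 to 0.137 CPM against 0.385 to 87.9 CPM) and in 2 of 3 in progressors of that batch. Epidermis markers were higher in 4 of 4 in nonprogressors of batch 1. The part of these lists in the levels of *Aldh18a1* and *Bcat1* was not tested.

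**Figure D3:**
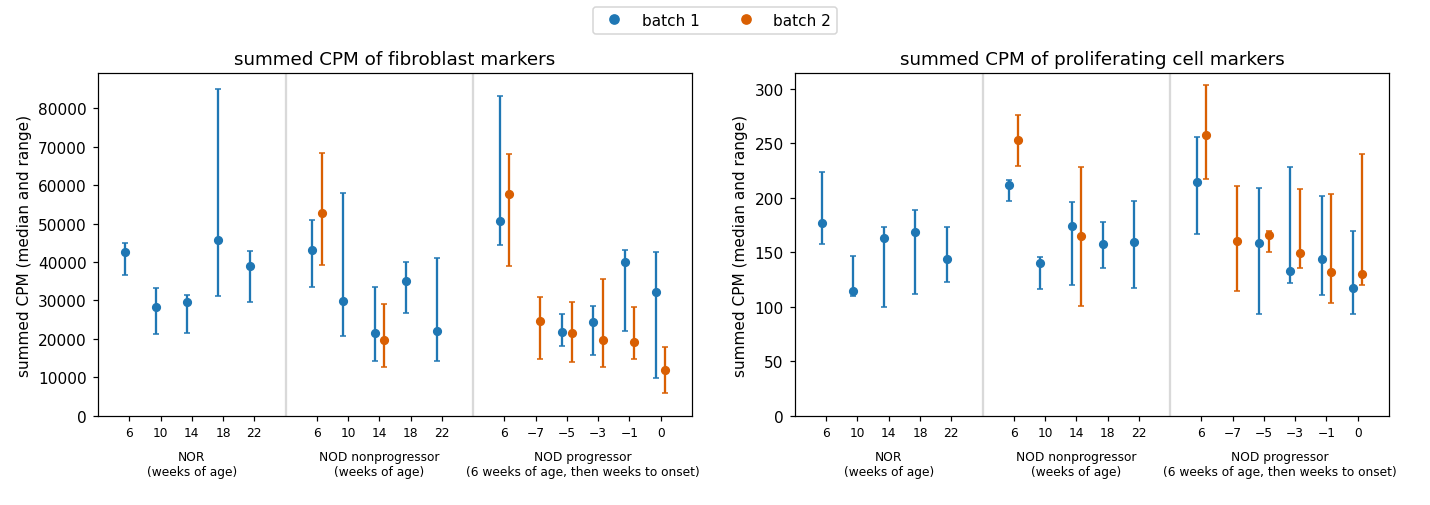
Summed CPM (y axis, from 0) of 6 fibroblast markers (left) and 8 proliferation markers (right) by group and time (x axis), with the median as a point and the range as a bar, batch 1 in blue and batch 2 in orange. In NOD mice of batch 2 the 6-week range of fibroblast markers, from 39096 CPM in progressors, lies above all later ranges.

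Differences of the age change between groups use the values that chose the genes, so their counts and intervals are descriptions too. None of the 10 genes passed edgeR's quasi-likelihood test for progressors against nonprogressors over both batches, where 0 genes of all 23871 did (0%), nor for nonprogressors against NOR mice in batch 1 (also 0%). At an unadjusted p under 0.05 the counts over the 10 genes were 0 and 0, beside 1520 and 1609 of all genes. DESeq2 called 0 of the 10 in either test. The 2 tests share the batch 1 nonprogressors. Of progressors against nonprogressors, the largest difference was that of *Bcat1*, whose age change was larger in progressors by 0.46 on the log2 scale (95% interval −0.01 to 0.92), with changes of 0.74 against 0.13 in batch 1 and 1.64 against 1.33 in batch 2. Leaving out single mice gave 0.23, without nonprogressor 5, to 0.55. At 6 weeks itself, none of the 10 genes differed between progressors and nonprogressors past the threshold in edgeR (0.00419% of all genes passed) or DESeq2. At an unadjusted p under 0.05 the count was 0 of 10, beside 1188 of all genes. The log2 difference of *Bcat1* was 0.33 (95% interval −0.06 to 0.73). Within either batch alone none of the 10 genes passed in these comparisons of progressors with nonprogressors.

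Levels of the same genes differed between batches. In the kinds of sample that both batches hold the mice differ too, so mice, cohort and instrument cannot be told apart. Over the 7 kinds of sample that both batches hold, *Asns* (log2 difference 0.43, standard error 0.11), *Psat1* (0.39, standard error 0.08) and *Aldh18a1* (0.21, standard error 0.06) were higher in batch 2, and *Shmt2* (−0.35, standard error 0.05) and *Trib3* (−0.30, standard error 0.14) were lower. Adjusted p-values of edgeR's quasi-likelihood test for these 5 genes lay between 1.89e-08 for *Shmt2* and 0.0421 for *Trib3*, and 65.4% of all genes passed this test. Comparisons in the text stay within a batch or hold the batch in the model for this reason.

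Progressors near onset were then compared with those at −7 weeks, a contrast that leaves the 6-week samples out and that only batch 2 allows. *Trib3* was higher after −7 weeks, and *Slc7a5*, *Asns* and *Mthfd2* had differences in the same direction that did not pass the test. So did *Psat1* (0.20 to 0.32 with single mice left out), *Bcat1* (0.29 to 0.43) and *Atf4* (0.08 to 0.16). *Phgdh*, *Shmt2* and *Aldh18a1* had differences of −0.25, 0.0018 and −0.02. Of the 10 genes 8 had a positive difference, with a median of 0.31 beside −0.01 over all genes.

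The 8 samples at −7 weeks held 4.03 to 8.32 CPM of *Trib3* (median 4.91). At −5 weeks the values were 4.88, 11.1, 3.73, 5.17 and 14.0 CPM for mice 6 to 10, and at −3 weeks 7.35, 8.69, 8.80, 9.41 and 5.37 CPM. At −1 week they were 14.6, 6.62, 3.98, 20.3 and 9.02 CPM, and at onset 6.36, 20.9, 19.6, 10.1 and 11.8 CPM. The values at −1 week and onset reached 20.3 and 20.9 CPM, and the lowest later values lay inside or below the −7 week range.

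The mean difference of *Trib3* over the 4 later times was 0.87 on the log2 scale (standard error 0.25), a 1.83-fold higher level and edgeR's quasi-likelihood test gave it an adjusted p of 0.0258. It was the only one of the 10 genes to pass (2.01% of all genes tested were higher). *Slc7a5* had a difference of 0.61 (standard error 0.20, adjusted p = 0.0577), *Asns* 0.57 (standard error 0.20, adjusted p = 0.0802) and *Mthfd2* 0.47 (standard error 0.17, adjusted p = 0.0904). With *Trib3*, all 4 had an unadjusted p under 0.05, as 4530 of the 23871 genes tested did.

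The call of *Trib3* depended on the fit. With the mouse as a block the difference was 0.80 (standard error 0.39, p after adjustment 0.351), and no gene of the whole table passed. With −5 and −3 weeks alone as the later times no gene passed either, and with the 5 mice of batch 2 alone, without the −7 week samples of mice 1 to 4, 4 genes passed and none of the 10 did; both were chosen after seeing the data. The difference of *Trib3* was 0.55 (standard error 0.27) and 0.75 (standard error 0.33) in these fits. Mice 1 to 4 gave 4 of the 8 samples at −7 weeks, and their later samples are in batch 1, so the main contrast compares partly different mice. DESeq2 called all 4 of *Trib3*, *Slc7a5*, *Asns* and *Mthfd2* (6.86% of all genes). Leaving out single mice gave differences of *Trib3* between 0.82 and 0.94 and adjusted p-values between 0.0126 and 0.0681. It passed without mouse 1, 8 or 9, and did not pass without mouse 2 (0.0608), 3 (0.056), 4 (0.0678), 6 (0.056), 7 (0.0681) or 10 (0.0597). Without mouse 8 *Slc7a5* passed as well.

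The highest values of several genes near onset came from a few scaffolds. Among the 28 batch 2 progressor samples without those of 6 weeks, the 4 highest values of *Atf4*, *Asns*, *Mthfd2* and *Trib3* belonged to the same 4 libraries, those of mice 7 and 8 at onset and of mice 6 and 9 at −1 week. They held 172, 166, 135 and 149 CPM of *Atf4*, in that order of libraries, against a median of 105 CPM over the 28. Of *Asns* they held 30.8, 23.7, 25.2 and 19.4 CPM. Of *Mthfd2* they held 31.8, 32.9, 25.5 and 28.3 CPM.

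*Slc7a5* was highest in 3 of them, with 59.7 CPM in mouse 7 and 23.8 CPM in mouse 8 at onset and 29.8 CPM in mouse 6 at −1 week. Fibroblast markers in these 4 libraries summed to 5899, 11778, 28366 and 14808 CPM, and the other libraries held between 10765 and 35479 CPM. Proliferation markers summed to 241, 130, 203 and 140 CPM, against 103 to 211 CPM in the other libraries, and macrophage markers to 6973, 8632, 7661 and 6089 CPM. Hair follicle markers summed to 4916 CPM in mouse 7 at onset, the highest of the 120 samples, to 67.6 CPM in mouse 8 at onset and to 1.46 and 1.91 CPM in the other pair. Among the remaining libraries mouse 10 at −5 weeks held 704 CPM and the rest at most 8.99 CPM. Epidermis markers summed to 170 CPM in mouse 7 at onset, the highest of the 28, and to 5.87, 2.06 and 5.54 CPM in the other 3. The part of these markers in the levels of the 10 genes was not tested.

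**Figure D4:**
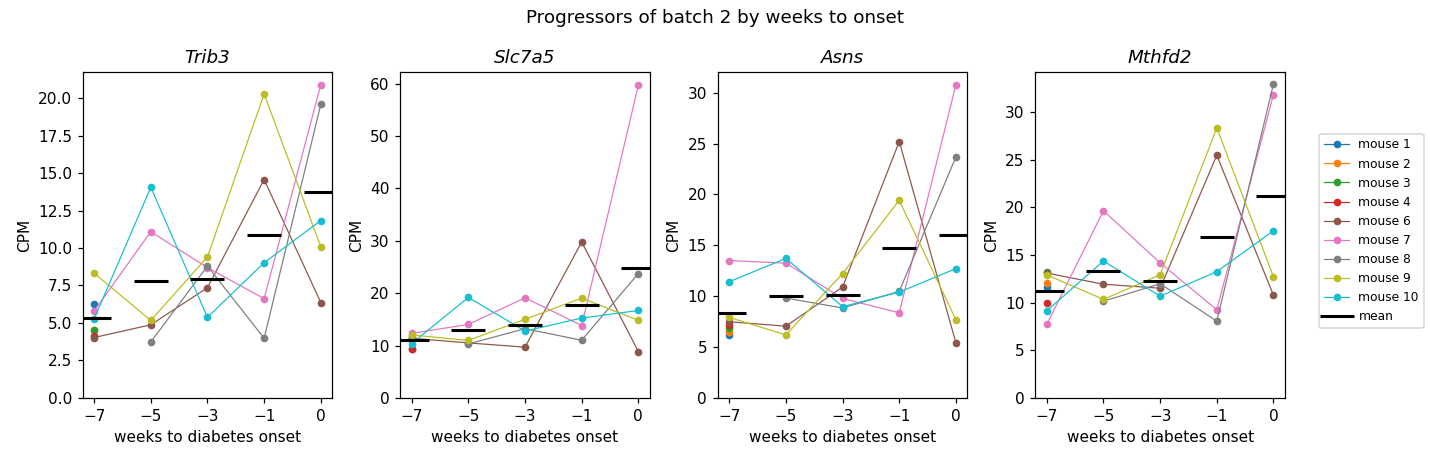
CPM (y axis, from 0) of *Trib3*, *Slc7a5*, *Asns* and *Mthfd2* in batch 2 progressors by weeks to onset (x axis), with a line for each mouse and a black bar at the mean. The −7 week samples cluster low, at 4.03 to 8.32 CPM for *Trib3*, and the onset samples of mice 7 and 8 stand above the other 3 mice.

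Other gene lists were counted in the same contrast, where 2.01% of all genes were higher after −7 weeks and 2.74% lower. Of 14 genes of the integrated stress response 2 were higher after −7 weeks and 0 lower, of 12 further serine, glycine and one-carbon enzymes 1 was higher, and of 20 cytosolic aminoacyl-tRNA synthetases 0 passed. Erythroid markers were lower after −7 weeks in 3 of 4, fibroblast markers in 2 of 6, and hair follicle markers were higher in 2 of 4, and their part in the result was not tested. Within progressors of both batches, −5 weeks against the later times gave 0 of 10 genes by edgeR (1.09% of all genes) and 0 by DESeq2. At an unadjusted p under 0.05 there were 3, beside 3346 of all 23871 genes. The 3 were *Phgdh* (0.52, standard error 0.23), *Slc7a5* (0.46, standard error 0.17) and *Asns* (0.40, standard error 0.18), all higher later.

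Changes with age past 6 weeks were tested in the mice that stayed healthy. In NOR mice, 6 of the 10 genes differed between 10, 14, 18 and 22 weeks (16.6% of all genes), and the CPM means of these 6 were lowest at 10 weeks. Single libraries bear on this order, since the mean log2 CPM of *Asns* was lowest at 18 weeks, where 1 library was at 0, and the median of *Mthfd2* was 9.17 CPM at 14 weeks against 10.8 CPM at 10 weeks. *Bcat1* differed most. Its values were 4.05, 5.73, 5.92, 5.44 and 4.48 CPM at 10 weeks and 9.56, 8.66, 5.04, 7.11 and 6.94 CPM at 14 weeks. They were 18.0, 10.3, 27.5 and 12.1 CPM at 18 weeks, the last from the library dominated by ribosomal RNA, and 18.7, 26.1, 20.4, 13.7 and 21.4 CPM at 22 weeks. The values thus ran from 4.05 to 9.56 CPM at 10 and 14 weeks and from 10.3 to 27.5 CPM at 18 and 22 weeks (adjusted p = 1.52e-07, edgeR's quasi-likelihood F-test).

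*Psat1* went from 6.54 ± 1.02 CPM at 10 weeks to 14.0 ± 1.92 CPM at 22 weeks (SD, n = 5 each, adjusted p = 0.000847 over the 4 ages in edgeR). *Asns* went from 4.68 ± 0.55 to 12.2 ± 2.11 CPM (adjusted p = 0.0041), *Mthfd2* from 10.8 ± 1.43 to 20.5 ± 3.54 CPM (adjusted p = 0.0044) and *Aldh18a1* from 24.0 ± 1.69 to 37.1 ± 4.87 CPM (adjusted p = 0.00193). *Phgdh* was highest at 14 weeks, with 10.1 ± 3.37 CPM against 4.01 ± 1.38 CPM at 10 weeks (adjusted p = 0.048). It did not pass in any of 5 fits that left out 1 NOR mouse (adjusted p from 0.053 to 0.169), without the filter (0.0617) or with the size factors of DESeq2 (0.0523). *Atf4*, *Shmt2*, *Slc7a5* and *Trib3* did not pass, with adjusted p-values between 0.193 and 0.847.

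Over the same ages of NOR mice, 1 of 6 fibroblast markers, 2 of 6 macrophage markers, 4 of 6 neutrophil markers and 0 of 8 proliferation markers differed, beside 16.6% of all genes. Fibroblast sums had medians of 28423, 29563, 45761 and 38910 CPM at 10, 14, 18 and 22 weeks, and neutrophil sums lay between 0 and 82.2 CPM. Their part in the result was not tested.

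Fewer of these calls were made without the 10-week samples. Without them and without the library of mouse 5 at 18 weeks, a choice made after seeing the data, 2 of the 10 genes passed, *Bcat1* (adjusted p = 0.00217) and *Aldh18a1* (adjusted p = 0.0219). Without that library alone 5 passed and *Phgdh* did not (adjusted p = 0.0663). A block for the mouse left 4 passing, and *Asns* (adjusted p = 0.119) and *Aldh18a1* (adjusted p = 0.085) did not. Nonprogressors of batch 1 at the same ages gave 0 of 10 by edgeR (7.98% of all genes) and 0 by DESeq2. At an unadjusted p under 0.05 there were 3, beside 5402 of all 23871 genes. Their *Bcat1* averaged 13.9 ± 10.5, 16.0 ± 5.92, 14.4 ± 3.21 and 14.3 ± 2.76 CPM at 10, 14, 18 and 22 weeks (n = 4 each). Whether the ages changed these genes differently in the 2 strains was not tested.

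NOD and NOR mice were compared in batch 1 with the samples of each mouse summed (9 NOD and 5 NOR mice, 23387 genes tested). The sums are not matched for age, since progressors were sampled by time to onset. NOR mouse 3 also lacks a 6-week sample and NOR mouse 2 an 18-week sample. The sums include the 6-week samples by which the genes were chosen. *Psat1* and *Bcat1* were higher in NOD mice, and 3.87% of all genes were. The NOD mice held 10.4 to 13.2 CPM of *Psat1* (median 12.05) and the NOR mice 11.3, 10.2, 9.75, 9.16 and 9.99 CPM, a log2 difference of 0.25 (standard error 0.06, adjusted p = 0.0158, edgeR's quasi-likelihood test). For *Bcat1* the NOD mice held 12.1 to 18.6 CPM (median 13.3) and the NOR mice 11.1, 12.4, 9.77, 11.8 and 10.0 CPM (0.34, standard error 0.10, adjusted p = 0.0421). The groups overlapped for both genes. In the same test 0 of 6 fibroblast markers, 1 of 8 proliferation markers in each direction and 2 of 6 macrophage markers (lower in NOD) differed, and their part was not tested.

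*Trib3* was near the threshold, with 7.79 to 13.3 CPM (median 10.5) in NOD and 6.32 to 10.3 CPM (median 7.59) in NOR mice (0.43, standard error 0.14, adjusted p = 0.0627), and DESeq2 called it together with the other 2. When single mice were left out, *Psat1* passed in 14 of 14 fits, *Bcat1* in 6 and *Trib3* in 2. *Bcat1* did not pass without progressor 2, 3 or 5, nonprogressor 1, or NOR mouse 1, 3, 4 or 5, with adjusted p-values up to 0.116 without NOR mouse 3, and *Trib3* passed without progressor 1 or NOR mouse 2. With the 6-week samples alone *Aldh18a1* was the only one of the 10 to pass, with nonprogressors as the only NOD mice *Psat1* was, and with each sample entered separately, or with the mouse as a block in limma, *Trib3* was. *Atf4*, *Asns*, *Phgdh*, *Shmt2*, *Mthfd2* and *Slc7a5* had differences between −0.06 and 0.16.

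The 10 genes did not all vary together. Over the means of the 26 combinations of group, time and batch, without the ribosomal RNA library, 35 of 45 pairs of genes had a positive Pearson correlation of log2 CPM, 20 were above 0.5 and the median was 0.39. These correlations are descriptions over points that share batches and mice. The points include the youngest samples, by whose levels against later times the genes were chosen. The part of that choice in the correlations was not tested. *Psat1* and *Bcat1* went together most closely (r = 0.88), and *Aldh18a1* joined *Bcat1* (0.79) and *Shmt2* (0.71). *Asns* went with *Slc7a5* and with *Mthfd2* (both 0.77), *Trib3* with *Mthfd2* (0.77), and *Atf4* with *Mthfd2* (0.64) and *Trib3* (0.62). With all libraries 38 pairs were positive, 14 were above 0.5 and the median was 0.28.

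**Figure D5:**
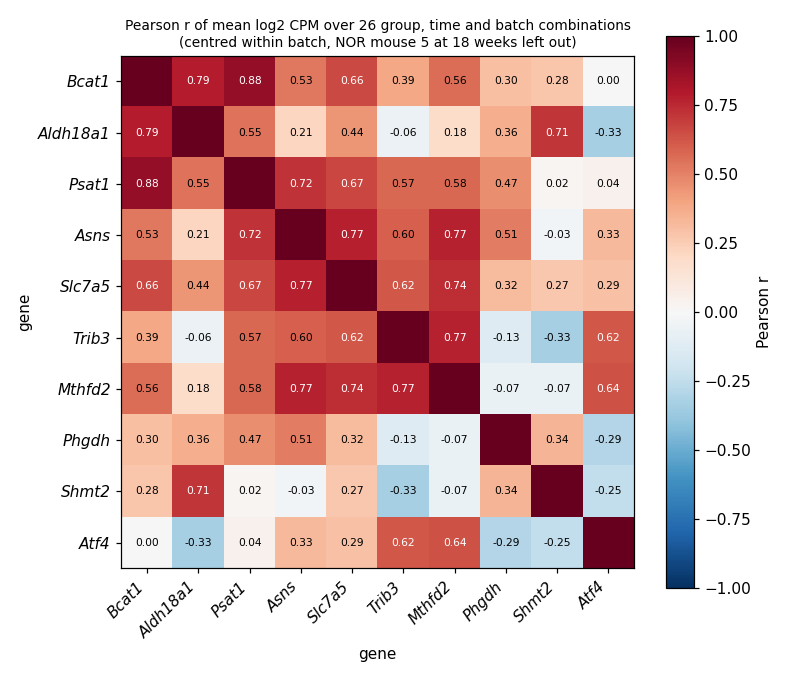
Pearson correlation of the log2 CPM of each pair of the 10 genes over 26 means of group, time and batch, without the ribosomal RNA library (color from −1 in blue to 1 in red, value in each cell). *Bcat1*, *Aldh18a1* and *Psat1* are highly correlated at upper left, and *Asns*, *Slc7a5*, *Trib3* and *Mthfd2* in the middle.

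Genes most like the average of the 10 were found by the correlation of their log2 CPM with the mean standardized level of the 10 over the same 26 points. This ranking is a description too, since the points include the youngest samples by which the 10 were chosen. *Eprs*, the glutamyl-prolyl-tRNA synthetase, was first with r = 0.90 over all libraries and 0.89 without the ribosomal RNA library. *Tubb3*, a neuronal tubulin also found in other cells, was next over all libraries (0.88) and had 0.84 without that library. The others of the first 10 over all libraries were *Abtb2*, *Tppp3*, *Ddx1*, *Gm38378*, *Gm37513*, *Gm49601*, *Diras2* and *Il11* (0.85 to 0.81). Without the ribosomal RNA library *Serpinb2* was second (0.853), followed by the mitochondrial folate enzyme *Aldh1l2* (0.849). *Kpnb1*, *Ssr1*, the glycyl-tRNA synthetase *Gars*, *Gm38378*, *Gm37513* and *Nbas* (0.84 to 0.83) were also among the first 10. Of the 10 genes most alike, 4 were the same in both lists.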

How the data were processed

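Total RNA depleted of ribosomal RNA was sequenced in 2 batches, and the authors deposited each gene's estimated count in each sample, made by RSEM per their notes, as a whole number without normalization. The submitters' processing notes name cutadapt, FastQC, STAR, RSEM, MultiQC and the build GRCm38, with versions and strand setting not given in the sources used here. Every column of both tables was used. Counts of 55487 shared genes were fitted in edgeR 4.0.16 (R 4.3.3) with filterByExpr, TMM scaling and a mean for each of 26 combinations of group, time and batch (120 samples, 94 residual degrees of freedom). Contrasts of these means were tested with the quasi-likelihood test and Benjamini-Hochberg adjustment at 0.05 over all 23871 genes tested. Intervals of 95% are normal intervals of the log2 difference. NOD and NOR mice were compared in batch 1 on counts summed per mouse. CPM are TMM-scaled, and correlations used log2 CPM with a prior count of 2.

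The genes, the other gene lists and the comparisons were chosen with earlier results of these data known. The genes named are these 10, genes most like them by correlation, the eIF2α kinases with their partners and some markers of cell types. No adjustment was made over the 10 genes alone. Coordinates and exon lengths are from GENCODE M21 and promoters from RefSeq. The edgeR fit was checked on simulated data. Alternatives were DESeq2 1.42.0, its size factors, no filter, single libraries or mice left out, the samples of a comparison alone and the mouse as a block (also limma 3.58.1, voom with duplicate correlation). The pairing of samples comes from the mouse numbers in the labels. How far 2 samples of 1 mouse lay from the mean of each one's group had a mean correlation of 0.0063 in NOR mice, 0.0038 in nonprogressors and −0.0075 in progressors over 2000 genes. Repeated samples of a mouse enter the main fit as separate samples, so its p-values measure the spread between samples. Near-identical copies and overlapping genes could share reads in the authors' counting. Figures were drawn with matplotlib 3.10.9 in Python 3.11.15.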

Additional observations from a re-analysis of the deposited data

Results flagged for a closer look

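In groups of 4 to 10 samples, a single value far from the others was sought for each of the 10 genes. Of 230 groups examined 16 held one, where chance gives about 1 in 20, and each was the highest value of its group. None of these was a test of a condition, and all values are CPM.

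The 14-week sample of NOR mouse 2 stood apart in 3 genes, with 162 for *Atf4* (others 97.0 to 113), 21.8 for *Mthfd2* (8.95 to 10.9) and 19.4 for *Trib3* (4.03 to 7.61). The 14-week sample of nonprogressor mouse 5 in batch 2 did so with 17.6 for *Mthfd2* (7.99 to 11.3), 10.6 for *Trib3* (4.02 to 6.07) and 26.1 for *Bcat1* (6.90 to 13.2). The 6-week sample of nonprogressor mouse 9 had 27.0 for *Slc7a5* (13.1 to 18.8) and 13.2 for *Trib3* (5.86 to 7.35). Nonprogressor mouse 4 of batch 1 had 38.8 for *Shmt2* (27.8 to 28.3) and 22.7 for *Slc7a5* (10.9 to 12.7) at 10 weeks, and 18.7 for *Bcat1* (15.1 to 15.3) at 6 weeks.

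Progressor mouse 5 had 9.96 for *Phgdh* (5.30 to 6.03) and 29.1 for *Slc7a5* (13.2 to 16.1) at onset, and progressor mouse 6 had 46.5 for *Aldh18a1* (23.8 to 29.1) at −1 week. The remaining values were *Atf4* at 121 in NOR mouse 4 at 6 weeks (85.8 to 90.3) and *Phgdh* at 7.75 in nonprogressor mouse 3 at 18 weeks (4.49 to 4.91).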

How the results depend on the processing

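Counts of the 10 genes called by edgeR kept within 1.5 times except where given here, and no called gene changed direction. Values that did not pass changed sign in several fits. With 14 weeks only as later, in the NOR age change *Phgdh* went from 0.17 to −0.47, *Psat1* from 0.11 to −0.03, *Shmt2* from −0.03 to 0.04 and *Slc7a5* from −0.17 to 0.0080, and in batch 1 nonprogressors *Phgdh* went from 0.51 to −0.12 and *Psat1* from 0.13 to −0.12. For progressors at −7 weeks against later times, where 1 gene was called, 2 were called without the NOR library of mouse 5 at 18 weeks and 4 by DESeq2. None was called with the samples of the comparison alone (0), with the mouse as a block (0), with −5 and −3 weeks only as later times (0), or with only mice sequenced throughout in batch 2 (0). The last 2 alternatives were chosen after seeing the data. For NOD against NOR, where 2 were called, 1 was called without the filter, at 6 weeks alone, with nonprogressors alone, with samples entered separately and under a block for the mouse, and 3 by DESeq2. Over ages in nonprogressors, 1 gene was called in place of 0 without that NOR library, and over ages in NOR mice, where 6 were called, 2 were called without it and without 10 weeks (an alternative chosen after seeing the data). In the age change of batch 1 nonprogressors, 1 gene was called in place of 2 when the samples labelled by days were added. The block called 3 and 2 genes in the age changes of nonprogressors in batch 1 and 2, 4 and 3 in those of progressors, and 4 over ages in NOR mice.

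With 1 mouse left out at a time, the genes called ranged from 0 to 1 in the age change of batch 1 nonprogressors, from 2 to 4 in that of batch 2 progressors, from 0 to 2 at −7 weeks and from 1 to 3 for NOD against NOR. Over all genes, the 1132 called at −7 weeks became 0 with the block, 0 with −5 and −3 weeks only and 4 with only mice of batch 2. The 260 at −5 weeks became 10 with the block, 73 with the comparison alone, 144 without the filter, 508 without the NOR library, 593 by DESeq2, and 394 and 114 within batch 1 and 2. The 30 of the NOR age change became 2 with the block, 7 with the comparison alone, 4 with 14 weeks only and 78 by DESeq2, and the 3367 of batch 1 nonprogressors became 1295 with 14 weeks only. Over ages, the 3955 in NOR mice became 1145 with the block, 1661 with the comparison alone and 1028 without 10 weeks and that library, and the 1905 in nonprogressors became 383 and 663 under the first pair. The 2101 for NOD against NOR became 403 at 6 weeks. For the differences of age changes, DESeq2 called 35 genes for nonprogressors against NOR mice and 26 for progressors against nonprogressors, where edgeR called 0 (1 within batch 1 for the latter), and at 6 weeks it called 22 where edgeR called 1 (6 within batch 1). The cause of these differences was not tested. Counting limits *Phgdh* most, whose median count was the lowest of the 10 genes (199).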

Other observations

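The 6 samples of nonprogressors that carry a day after implantation in place of an age entered no main comparison. They held 11.6 and 9.07 CPM of *Bcat1* at 31 days, 6.13 and 8.80 CPM at 38 days and 6.84 and 4.59 CPM at 108 days. *Aldh18a1* lay between 27.7 and 30.1 CPM in all 6, and *Psat1* was 9.90 and 8.93, 9.13 and 6.90, and 7.32 and 7.19 CPM at the same times. *Trib3* ran from 3.26 to 7.42 CPM and *Atf4* from 111 to 127 CPM. The labels give no age for these samples, and they carry no test.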
